A study of Mus musculus with 8 samples.

Results

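Simple tandem repeats are stretches of DNA in which a short unit of bases, such as CA or CAG, is copied head to tail. The repeat table of the study counts reads by the name of the unit, so that (CAG)n gathers the reads of every annotated CAG tract in the genome. The names of class simple repeat with a mean of at least 1 FPM over all pools were taken, where FPM is fragments scaled to library size. They number 207 of 315 simple repeat names and of 1554 repeat names in all. Of the other 108 names, 24 were at 0 in every pool. RNA came from mouse 2-cell embryos of the C57BL/6 background, pooled in groups of 12 to 18, with 4 wild type pools (WT) and 4 pools with a knockout of Dux (Dux KO). The labels give polyA RNA from embryos of timed matings, state no age of the parents and do not describe the knockout allele or the number of founders. The product of Dux is a double homeobox protein that activates genes at the 2-cell stage, and the comparison asks which transcripts differ when it is missing.

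Tracts of short units arise mostly by slippage during DNA replication, which makes them variable in length. Most lie between genes or in introns, and some lie in untranslated regions or in coding exons, where a trinucleotide unit such as CAG encodes a run of 1 amino acid. Mouse 2-cell embryos transcribe large parts of the genome, retroviral elements included, while the maternal RNA of the egg is being degraded. A read assigned to a simple repeat name can thus come from a messenger RNA, an unspliced RNA or a transcript that starts in a nearby mobile element, and the name alone does not tell these apart.

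Of the 10 names called by the test described below, 8 are shown first, since the results turn on them. Each line gives the unit copied to 24 bases, with the first copy in capitals.
(CAG)n, lower in Dux KO: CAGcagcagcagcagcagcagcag
(CCA)n, lower in Dux KO: CCAccaccaccaccaccaccacca
(ATG)n, lower in Dux KO: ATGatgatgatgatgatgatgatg
(TCC)n, lower in Dux KO: TCCtcctcctcctcctcctcctcc
(GGA)n, lower in Dux KO: GGAggaggaggaggaggaggagga
(TATG)n, lower in Dux KO: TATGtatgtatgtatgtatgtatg
(CAGC)n, higher in Dux KO: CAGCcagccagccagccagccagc
(TAGA)n, higher in Dux KO: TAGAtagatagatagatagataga
(TCC)n and (GGA)n have units that are reverse complements of each other.

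The pools held 2239838 to 3008546 reads on repeat names, of which simple repeats took 158898 to 271809, or 5.92 to 10.2%. A single read was worth 0.327 to 0.427 FPM. Every pair of pools within a group differed beyond counting noise (14.4 to 116 for chi-square over its degrees of freedom), and none looked like a library deposited a second time. The labels do not tie pools to separate parents, so a p-value here speaks only of the spread among these 8 pools. FPM totals over all repeat names ranged from 1019090 to 1183116 among WT pools and from 834571 to 951000 among Dux KO pools, and the values are thus not scaled to a common total. All 6 marker genes of 2-cell embryos were among the genes measured, with a summed level of 180 to 337 FPKM in WT and 188 to 290 in Dux KO. One of them, Obox3, was apart between the groups, at 32.6 to 72.9 FPKM in WT and 13.0 to 24.5 in Dux KO. The summed level of 5 oocyte and cleavage genes was 4966 to 6059 FPKM in WT and 3657 to 4343 in Dux KO. Dppa3 made up most of that sum, with 4576 to 5665 FPKM in WT and 3158 to 3747 in Dux KO. Bmp15 went the other way, from 72.5 to 139 FPKM in WT to 218 to 426 in Dux KO, and Gdf9 had 60.7 to 73.8 and 75.8 to 106 FPKM. Of the 7 cumulus markers only Cyp19a1 was among the genes measured, at 0.220 to 0.573 FPKM in WT and 0.701 to 1.45 in Dux KO. Of the 4 oviduct markers only Ovgp1 was, at 1.74 to 11.5 FPKM in WT and 3.07 to 22.0 in Dux KO, and none of the 3 blood and 3 sperm markers was. The part of these differences in the results below was not tested, and the transcript of Dux itself was not analysed here, so the knockout was not checked on its own target.

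Among the 207 names, 8 were lower in Dux KO and 2 were higher at an adjusted p under 0.05 in limma, on the log2(FPM + 1) scale that all fold changes here use. The 8 are 3.86% of the members, against 7.58% lower among all 1267 repeat names tested, and the 2 are 0.966%, against 4.66%. The members' share of calls lay under that of all names in both directions, a difference that was not tested. The median log2 fold change was -0.08 for simple repeats and -0.02 for all names tested, and 61.4% of simple repeats lay below 0, against 53.0% of all names. In 16 names all Dux KO pools lay under all WT pools (7.73%, against 10.8% of all names), and in 7 names all lay above (3.38%, against 7.58%). The counts depend on the scaling: with median-of-ratios scaling 6 names were lower and 4 higher (99 and 86 of all 1267 names). With every pool brought to the same repeat total 1 was lower and 19 higher (37 and 312 of all 1267 names). That last scaling moved the median of all names up by 0.29, median-of-ratios scaling by 0.03, and the median of simple repeats became 0.17 and -0.06. In bulk pools, fewer embryos or cells carrying a transcript and less RNA per cell cannot be told apart.

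**Figure D1:**
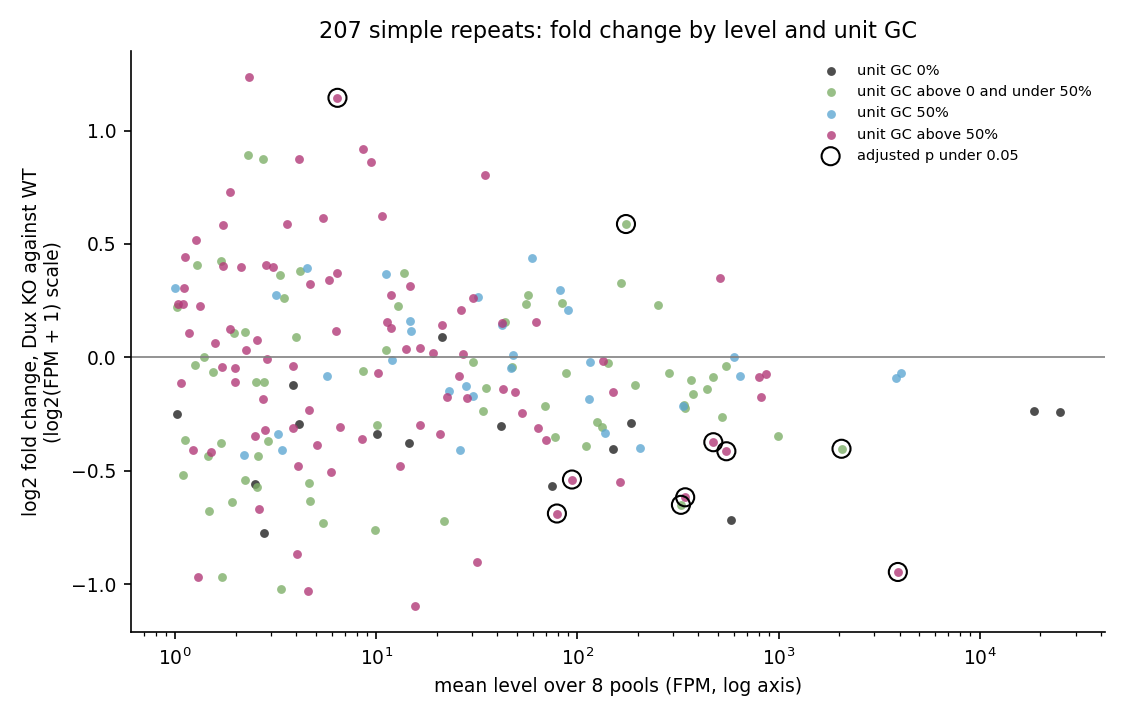
Log2 fold change of Dux KO against WT (log2(FPM + 1) scale) of the 207 simple repeats against their mean level over the 8 pools (FPM, log axis), coloured by GC content of the unit, with a ring round the 10 names called. Names called lower have means of 79.1 to 3920 FPM and the lowest ringed point is (CAG)n at -0.95, while the ring at the upper left is (CAGC)n with a mean of 6.42 FPM.

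The clearest difference was that of (CAG)n, the fourth most abundant simple repeat. Its level was 4990, 6008, 4156 and 5473 FPM in WT replicates 1 to 4 and 2670, 2177, 3335 and 2553 FPM in Dux KO replicates 1 to 4. Every Dux KO pool lay under every WT pool, and the group mean fell from 5157 ± 786 to 2684 ± 482 FPM (SD, n = 4 pools each). The log2 fold change was -0.95 with a standard error of 0.14 (limma, adjusted p = 0.00105). It was the single name that kept its call under all 20 alternative settings, with adjusted p of 1.05e-07 to 0.0235. MERVL-int, the internal part of an endogenous retrovirus that DUX is known to activate, was lower in the same pools, at 14081, 16381, 11360 and 13236 FPM in WT and 4548, 5395, 6050 and 5785 FPM in Dux KO. Whether the reads of (CAG)n lie in or near MERVL copies was not tested.

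CTG is the reverse complement of CAG, and (CTG)n was not called. Whether both names gather the same loci was not tested. It held 808 to 971 FPM in WT and 800 to 861 FPM in Dux KO, with overlapping groups and a log2 fold change of -0.07 (standard error 0.10). The ratio of (CAG)n to (CTG)n was 6.17, 6.95, 4.28 and 6.12 in WT and 3.10, 2.57, 3.92 and 3.19 in Dux KO. The log2 ratio differed by -0.87 between the groups with no overlap (exact permutation test, two-sided p = 0.0286, the smallest that 4 against 4 pools allow). Adjusted over all 86 pairs of reverse complements, the exact permutation p was 0.32.

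Other trinucleotide units made up 4 of the remaining 7 lower names. (CCA)n had 384, 365, 460 and 455 FPM in WT and 240, 254, 332 and 260 FPM in Dux KO, and no pool of one group reached the other. Its log2 fold change was -0.62 ± 0.13 (SE; limma, adjusted p = 0.0120). (ATG)n, the second most abundant trinucleotide, had 2570, 2260, 2169 and 2373 FPM in WT and 1875, 1631, 1727 and 1852 FPM in Dux KO. These groups were also apart, with a log2 fold change of -0.40 ± 0.10 (limma, adjusted p = 0.0210). Its reverse complement (CAT)n, at 1026 to 1185 FPM in WT and 751 to 987 in Dux KO, showed a similar value of -0.35 ± 0.12 but missed the threshold (limma, adjusted p = 0.0748).

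(TCC)n, all pyrimidines, and (GGA)n, all purines, were the single pair of reverse complements with both names called. (TCC)n had 594, 618, 644 and 659 FPM in WT and 437, 440, 506 and 507 FPM in Dux KO, a log2 fold change of -0.41 ± 0.11 (SE; limma, adjusted p = 0.0249). (GGA)n had 525, 538, 539 and 535 FPM in WT and 383, 372, 474 and 427 FPM in Dux KO, or -0.37 ± 0.11 (limma, adjusted p = 0.0438). Neither name overlapped between groups, and the ratio of the names stayed between 1.07 and 1.23 in all 8 pools. Among the dinucleotides of the same kind, (GA)n had a mean of 604 FPM in both groups and a log2 fold change of 0.00 ± 0.11, and (TC)n of -0.08 ± 0.11, neither called.

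A lower name with a longer unit was less abundant. (TATG)n had 418, 385, 357 and 426 FPM in WT and 307, 182, 230 and 312 FPM in Dux KO, with a log2 fold change of -0.65 ± 0.16 (SE; limma, adjusted p = 0.0204). Every Dux KO pool was under every WT pool.

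The 2 higher names were of smaller size or less separate. (CAGC)n rose from 5.02, 2.96, 4.27 and 2.34 FPM in WT to 10.7, 10.5, 6.25 and 9.31 FPM in Dux KO, a log2 fold change of 1.14 ± 0.30 (SE; limma, adjusted p = 0.0268). These are 6 to 12 reads in a WT pool and 18 to 32 reads in a Dux KO pool, and counting error is a large share of each value. (TAGA)n had 171, 121, 131 and 129 FPM in WT and 251, 261, 159 and 172 FPM in Dux KO, and here WT replicate 1 overlapped with Dux KO replicate 3. Its log2 fold change was 0.59 ± 0.18 (limma, adjusted p = 0.0463), while its reverse complement (TCTA)n had -0.28 ± 0.19 and was not called.

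Apart from (CAG)n, each called name listed lost its call under some of the 20 alternatives: (CCA)n under 3, (TCC)n and (TATG)n under 6 each, (CAGC)n under 7, (ATG)n under 8, (TAGA)n under 9 and (GGA)n under 13. Without Dux KO replicates 1 and 2 together, (CAG)n alone remained called. No called name changed direction under any alternative that gave it a value. The authors' deposited table gives an adjusted p for 158 of the 207 names, of which 10 were lower and 3 higher, and these hold all 10 names called here. Among all 1139 names of at least 1 FPM with a deposited value, 127 were lower and 75 higher.

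**Figure D2:**
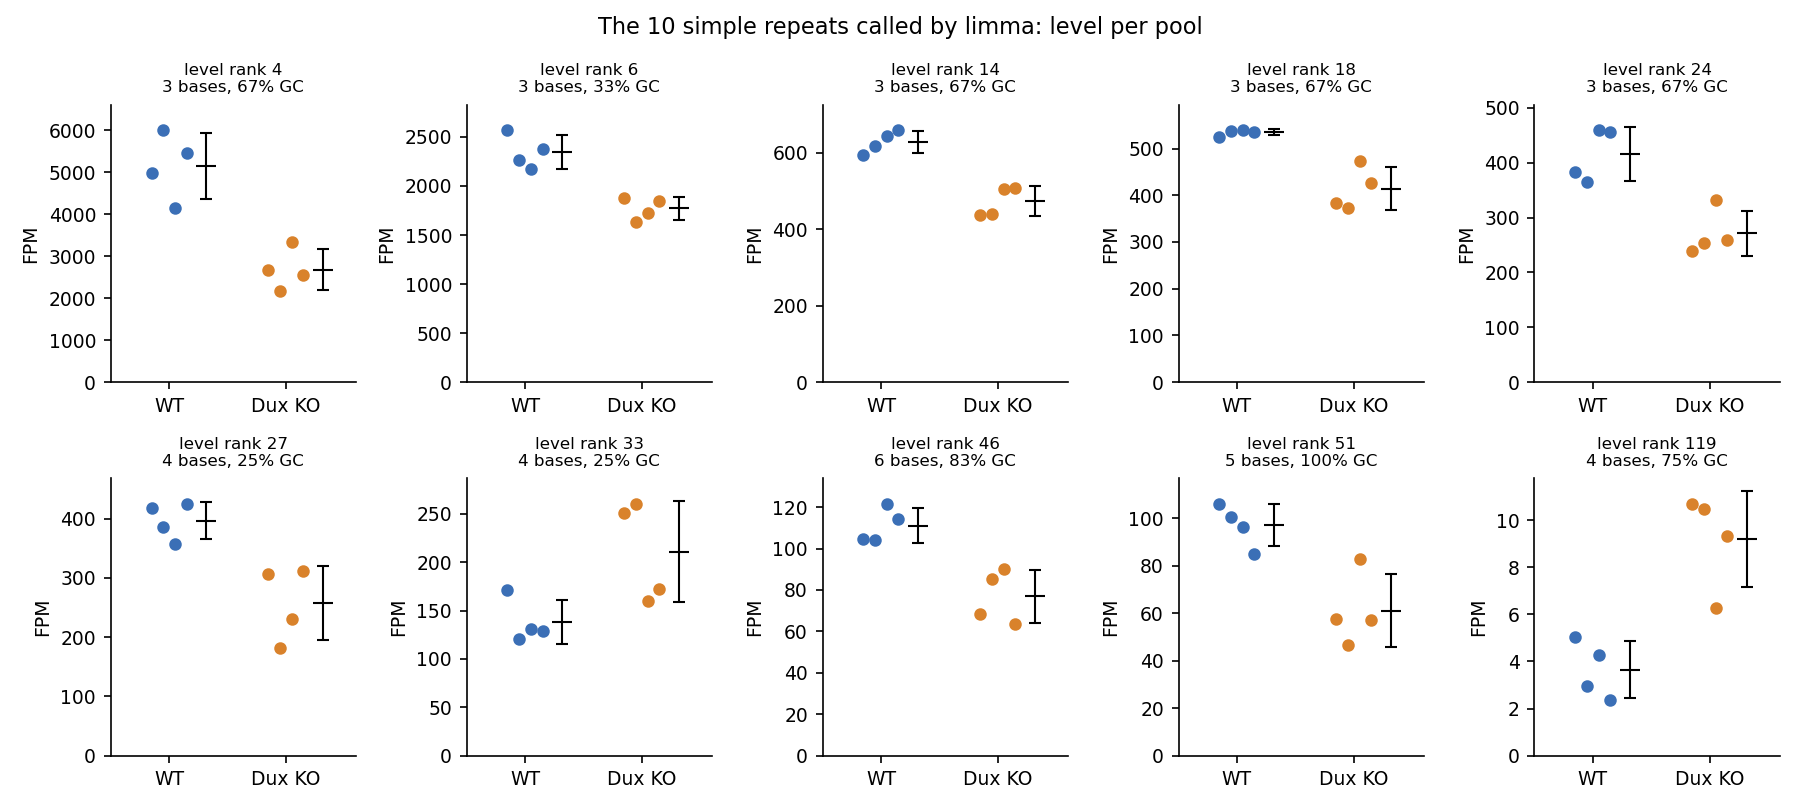
Level of each of the 10 called names in every pool (FPM, axes from 0), with points for WT in blue and Dux KO in orange and bars for the mean and SD of 4 pools; panels are marked by rank of level among simple repeats, unit length and unit GC content. Rank 4 is (CAG)n and rank 6 is (ATG)n, the groups are apart in 9 panels, and they overlap in rank 33, which is (TAGA)n.

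By length of the unit, the members comprise 2 names with 1 base, 6 with 2, 20 with 3, 55 with 4, 98 with 5 and 26 with 6. Of the 20 trinucleotides 5 were called lower, against 7.58% of all names, and on the deposited scale theirs was the only summed level among the 6 lengths that separated the groups. It was 14432, 15284, 13714 and 15009 FPM in WT and 10488, 9747, 11607 and 10481 FPM in Dux KO, a ratio of group means of 0.724. Without (CAG)n the sum was 9277 to 9558 FPM in WT and 7570 to 8272 FPM in Dux KO, a ratio of 0.835, and for the 15 trinucleotides that were not called it was 0.898, again with no overlap. These orders depend on the scaling to different degrees. With median-of-ratios scaling the trinucleotide sum still did not overlap (a ratio of 0.738). The groups overlapped there without (CAG)n (0.849) and for the uncalled names (0.912). With equal repeat totals the trinucleotide ratio was 0.899 with overlapping groups, that without (CAG)n was 1.04, and that of the uncalled names was 1.11. The other lengths moved with the scaling as well: units of 5 bases were lower in Dux KO without overlap under median-of-ratios scaling (a ratio of 0.935), whereas with equal repeat totals units of 4 and 5 bases were higher without overlap (1.18 and 1.14).

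The sums of the other lengths overlapped between groups. The ratio of group means was 0.888 for units of 1 base, 0.932 for 2, 0.953 for 4, 0.917 for 5 and 0.899 for 6, and each of them went above 1 with equal repeat totals (1.09, 1.15, 1.18, 1.14 and 1.11). Over all members the sum was 65972 to 87060 FPM in WT and 51937 to 96878 FPM in Dux KO, a ratio of 0.868 that became 1.07 with equal repeat totals. No sum was tested. Leaving out Dux KO replicate 1 gave a ratio of 0.754 over all members, and leaving out Dux KO replicate 2 gave 0.941.

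**Figure D3:**
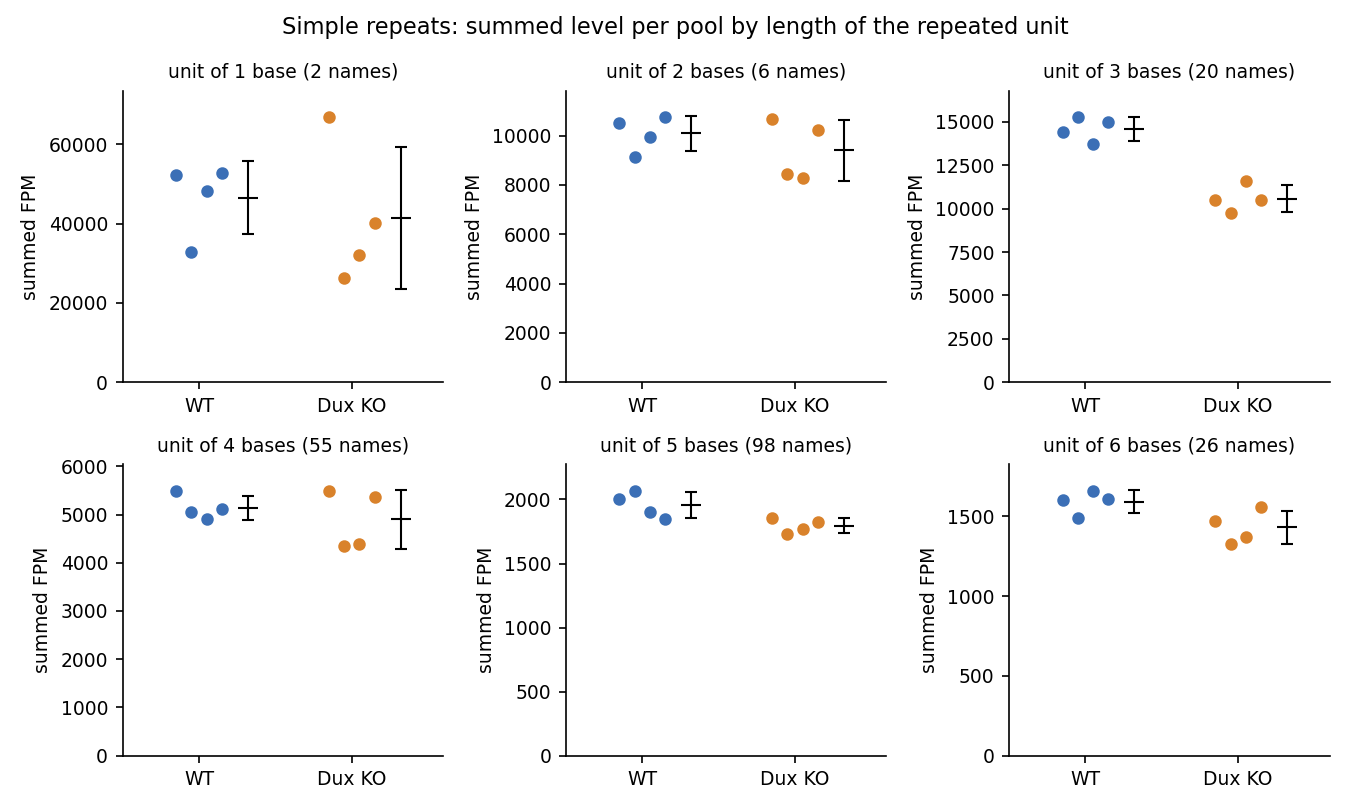
Summed FPM of the simple repeats of each unit length in every pool (axes from 0), WT in blue and Dux KO in orange, with the mean and SD of 4 pools. The groups are apart for units of 3 bases, at 13714 to 15284 FPM in WT and 9747 to 11607 FPM in Dux KO, and overlap there too once every pool is brought to the same repeat total, where the ratio of all other lengths turns above 1.

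By GC content of the unit, names above 50% GC held 6 lower names and 1 higher name among 92. These are 6.52% and 1.09%, against 7.58% and 4.66% of all names. Their sum was 10830 to 12136 FPM in WT and 7554 to 9178 FPM in Dux KO, a ratio of 0.726, and without (CAG)n the ratio was 0.895 on the deposited scale and 1.11 with equal repeat totals. Among 69 names above 0 and under 50% GC, 2 were lower and 1 higher. None of the 31 names at 50% GC and none of the 15 names without G or C was called. On the deposited scale, the median log2 fold change was -0.03 above 50% GC, -0.05 at 50%, -0.11 between 0 and 50% and -0.30 at 0% GC. Single names above 50% GC ran from -1.10 to 1.24.

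The levels of units without G or C differed widely between Dux KO pools. (A)n and (T)n, the mononucleotide names, together held 58.8% of the FPM of all members. (A)n had 29871, 18776, 27722 and 30152 FPM in WT and 39868, 14549, 17992 and 22924 FPM in Dux KO, and (T)n had 22422, 14176, 20620 and 22569 in WT and 27026, 11783, 13993 and 17232 in Dux KO. Dux KO replicate 1 was the highest pool of both names and Dux KO replicate 2 the lowest, so the Dux KO group spanned the WT group. The log2 fold changes of -0.24 ± 0.27 and -0.24 ± 0.23 (SE) were near or under their errors, and neither was called.

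Most longer units of A and T shared the highest or the lowest of these pools. (TA)n had 779, 464, 724 and 850 FPM in WT and 696, 238, 317 and 575 FPM in Dux KO, and (TAAA)n had 233, 151, 193 and 191 FPM in WT and 362, 93.2, 134 and 128 FPM in Dux KO. (TA)n was highest in WT replicate 4. Of the 13 units of A and T with 2 or more bases, Dux KO replicate 1 was the highest pool in 8, and a WT pool was the highest in 4. Dux KO replicate 2 was the lowest pool in 8 and the highest in 1, and Dux KO replicate 3 was the lowest in 4. The same replicate 2 was the lowest pool in 46 of the 192 members with G or C, and in 17.5% of the 1060 tested names of other classes. In the 10 names with at least 10 FPM, Dux KO replicate 1 lay 0.38 to 1.12 above the name's mean over pools on the log2(FPM + 1) scale and Dux KO replicate 2 lay 0.46 to 1.16 below it. The median coefficient of variation of these 10 names was 61.1% over the Dux KO pools and 19.9% over the WT pools, against 12.7 to 18.8% and 11.2 to 17.0% in the other GC classes.

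This spread bears on the fold changes of these names. Of the 15, 14 had a log2 fold change below 0 on the deposited scale, and 10 with equal repeat totals, with none called. Without Dux KO replicate 1, limma called (TA)n, (TAA)n, (TAAA)n and (TTTA)n lower. None of the 15 was called when any other single pool was left out, while the replicate block called (TA)n lower. The summed level of the 15, held mostly by (A)n and (T)n, had a ratio of group means of 0.884 over all pools. Dropping Dux KO replicate 1 made this ratio 0.701, dropping replicate 2 made it 0.992, and dropping replicates 3 and 4 together made it 0.997. AT_rich, a low complexity name outside the class, held 4588, 3036, 4050 and 4389 FPM in WT and 6089, 2692, 2926 and 3942 FPM in Dux KO, so the same pools were highest and lowest. A-rich and T-rich, which are also low complexity names, stayed within 1087 to 1297 and 1229 to 1445 FPM over all 8 pools. The source of this spread was not tested.

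**Figure D4:**
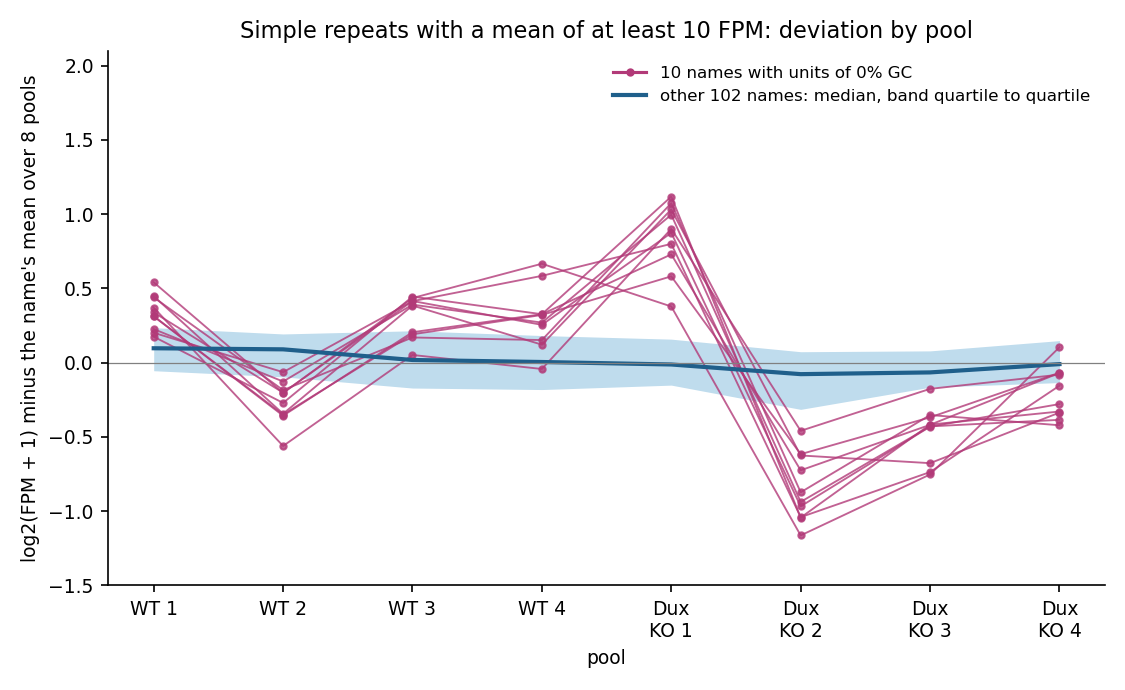
Deviation of each pool from the name's mean over the 8 pools (log2(FPM + 1) scale) for the 10 names of 0% unit GC with at least 10 FPM (purple, 1 line a name; lines only join the values of a name) and, in blue, the median and quartile band of the other 102 names with at least 10 FPM. Dux KO replicate 1 lies at 0.38 to 1.12 and Dux KO replicate 2 at -1.16 to -0.46 in the 10 names, while the median of the others is -0.01 and -0.08 there.

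Names that are reverse complements of each other were then set side by side. The kits named in the labels do not mark strand, and how the names were oriented is not given in the sources used here. The members form 121 families of units that are rotations or reverse complements of each other, and 86 families hold a pair of names, all of them reverse complements. In the 45 pairs with both names at 10 FPM or more, the more abundant name was under 1.5 times the level of the other in 22 and over 2 times in 15. (CGTG)n, at 509 FPM, was 18.8 times as abundant as (CACG)n, and (CAG)n was 4.55 times as abundant as (CTG)n. FPM is not divided by length, and the total length annotated under each name was not used here, so these ratios do not compare transcription per base. The fold changes of 29 of the 45 pairs lay on the same side of 0, and their median absolute difference was 0.24 on the log2 scale.

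Among the 9 pairs with a called name, 3 had ratios that did not overlap between groups, as had 4 of the 77 pairs without one. Besides (CAG)n over (CTG)n, these were (TAGA)n over (TCTA)n, with a log2 ratio higher by 0.87 in Dux KO, and (CATA)n over (TATG)n, higher by 0.39. One of the 4, (TTG)n over (CAA)n, was lower by a log2 ratio of -0.45. All 7 had an exact permutation p of 0.0286, or 0.32 after adjustment over the 86 pairs, so none passed. Pairs with a called name were picked by values of these same pools, so their larger share of separate ratios is no independent result. For (ATG)n over (CAT)n the difference was -0.05 (exact permutation p = 0.686) and for (TCC)n over (GGA)n -0.04 (exact permutation p = 0.429).

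**Figure D5:**
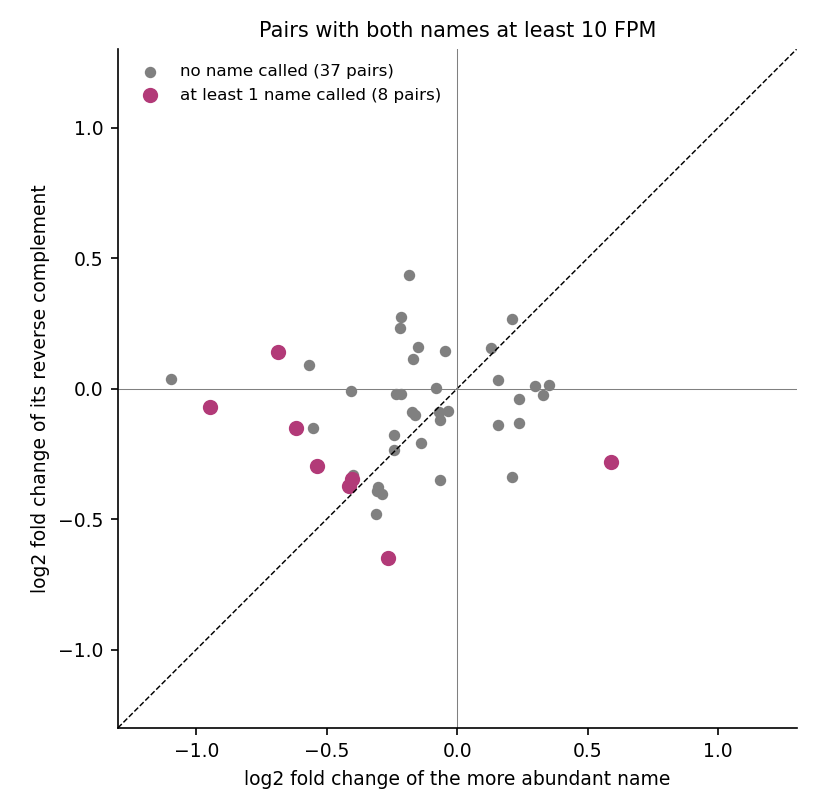
Log2 fold change (log2(FPM + 1) scale) of the more abundant name of a pair against that of its reverse complement for the 45 pairs with both names at 10 FPM or more; the dashed line marks equality and the 8 pairs with a called name are purple. (CAG)n and (CTG)n lie at -0.95 and -0.07, and (TAGA)n and (TCTA)n at 0.59 and -0.28, while (TCC)n with (GGA)n and (ATG)n with (CAT)n lie near the line.

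Most of the well known families were not called. The dinucleotides (CA)n and (TG)n, the most common microsatellites of the mouse genome, had 4150 ± 263 and 3936 ± 248 FPM in WT and 3969 ± 490 and 3716 ± 483 FPM in Dux KO (SD, n = 4), with log2 fold changes of -0.07 ± 0.11 and -0.09 ± 0.11 (SE). The CpG-holding trinucleotides (CCG)n and (CGG)n, the kind of tract found in many 5′ untranslated regions, had -0.17 ± 0.11 and -0.09 ± 0.13 at means of 816 and 800 FPM. The telomere repeat was rare in this RNA: (CCCTAA)n had a mean of 11.2 FPM and (TTAGGG)n of 5.68 FPM, with log2 fold changes of 0.37 ± 0.31 and -0.08 ± 0.34. Of the abundant longer units, (CGTG)n had 362 to 503 FPM in WT and 443 to 798 FPM in Dux KO (0.35 ± 0.17, limma, adjusted p = 0.196), and (CAAAAA)n had 135 to 152 FPM in WT and 157 to 201 FPM in Dux KO with no overlap (0.33 ± 0.13, limma, adjusted p = 0.111). (CAGAGA)n, at 211 to 257 FPM in WT and 147 to 194 FPM in Dux KO, had -0.40 ± 0.13 (limma, adjusted p = 0.0637). At the minimum level, (CGAA)n and (ATAGG)n entered with means of 1.00 and 1.02 FPM, while (GGGTG)n at 0.990 FPM and (C)n at 0.972 FPM did not.

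To see which measured messenger RNAs could carry such tracts, perfect tracts of at least 24 bases and 3 units were searched on both strands in the 71416 GENCODE M21 transcripts (GRCm38) of 13100 genes in the authors' gene table. Tracts of member units were found in 3240 genes, or 24.7%. Of the 207 names, 34 had no such gene, 74 had 1 to 5 and 99 had 6 or more, with median levels of 2.59, 4.08 and 69.9 FPM. Across the 207 names the number of genes and the mean FPM had a Spearman rho of 0.70, given as a description, since names of a family share their genes and all names share the pools. Tracts in introns and between genes were not analysed here, nor were shorter or interrupted tracts. The genes below may thus hold only part of the reads of a name. Each gene was counted for both names of a pair of reverse complements, whichever unit its transcript reads.

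Tracts of CAG or of its reverse complement CTG lay in 94 genes, in coding sequence in 43 of them. They lay in the 3′ untranslated region in 15, in the 5′ untranslated region in 10 and in transcripts without coding sequence in 26. The 94 thus belong to (CTG)n as much as to (CAG)n, and transcripts that read CAG were not counted apart. In the authors' deposited table, at an adjusted p under 0.05, 10 of the 94 were lower and 19 higher, against 18.6% lower and 16.2% higher among all 13101 genes, and the 94 summed to 749 FPKM in WT against 795 in Dux KO. The most abundant was Nolc1, a nucleolar phosphoprotein gene, with the tract in exon 10 at chr19:46083156-46083182 on the plus strand, within the coding sequence. Smarca2, an ATPase of the SWI/SNF chromatin remodelling complex, carries a tract in exon 4 at chr19:26630987-26631018 on the plus strand that encodes glutamines. D6Ertd527e has its tract in exon 2 at chr6:87111940-87111977 on the plus strand. The tracts are shown in capitals with 15 coding bases on each side, since they are the coding CAG tracts of the most abundant genes.
Nolc1: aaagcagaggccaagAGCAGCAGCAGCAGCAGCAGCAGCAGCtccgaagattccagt
Smarca2: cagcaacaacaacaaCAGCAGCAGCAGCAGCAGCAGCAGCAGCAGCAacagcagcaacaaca
D6Ertd527e: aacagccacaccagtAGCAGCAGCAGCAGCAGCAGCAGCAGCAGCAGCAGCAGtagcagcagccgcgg
Nolc1 had 74.2, 88.5, 121 and 110 FPKM in WT and 62.2, 40.3, 72.0 and 74.7 FPKM in Dux KO, and the authors' deposited table gives a log2 fold change of -0.66 (adjusted p = 0.0203). Smarca2 went the other way, with 31.7, 27.2, 23.3 and 21.3 FPKM in WT and 39.0, 53.3, 39.4 and 48.3 FPKM in Dux KO, and 0.80 in the authors' deposited table (adjusted p = 0.000326). D6Ertd527e had 46.2 to 60.2 FPKM in WT and 52.5 to 96.4 FPKM in Dux KO, with 0.48 in the authors' deposited table (adjusted p = 0.0679).

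For (TCC)n and (GGA)n, 7 of 55 genes with a tract were lower and 11 higher by the authors' deposited table, against the 18.6% and 16.2% of all genes. The most abundant, AU015836, has its tract in the 5′ untranslated region, in exon 1 at chrX:93969247-93969275. It went from 16.7 ± 4.24 FPKM in WT to 50.4 ± 11.9 in Dux KO (SD, n = 4), opposite in direction to both names. The authors' deposited table gives it a log2 fold change of 1.6 (adjusted p = 5.33e-10). Among the lower genes was L1td1, a gene derived from a LINE-1 open reading frame. L1td1 carries its GGA tract in coding exon 2 at chr4:98736775-98736812, and it went from 18.4 ± 6.96 FPKM in WT to 9.11 ± 1.38 in Dux KO (SD, n = 4). The authors' deposited table gives it a log2 fold change of -1.02 (adjusted p = 0.000858).
L1td1: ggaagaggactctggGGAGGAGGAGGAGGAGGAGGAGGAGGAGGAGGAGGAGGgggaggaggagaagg
For (CCA)n and its reverse complement (TGG)n, none of 30 genes was lower and 8 (26.7%) were higher by the authors' deposited table. The shares of all genes were 18.6% and 16.2%. The most abundant, Usp34, has a coding tract in exon 15 and was not called, with a log2 fold change of 0.14 in the authors' deposited table (adjusted p = 0.612). Yy1, with a coding tract in exon 1, had -0.27 there (adjusted p = 0.301). The tract of Pou4f1, a POU domain transcription factor gene, lies in coding exon 2 at chr14:104466669-104466697 on the minus strand and encodes histidines. Pou4f1 was among the 8 higher genes, with 8.71 to 13.9 FPKM in WT and 14.1 to 17.7 FPKM in Dux KO. The authors' deposited table gives it a log2 fold change of 0.54 (adjusted p = 0.0313).
Pou4f1: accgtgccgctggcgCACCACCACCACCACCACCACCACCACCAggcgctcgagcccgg

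Few measured genes held a perfect tract of (ATG)n of at least 24 bases. Among the genes searched 3 held a tract of the family, 2 of them in coding sequence, summing to 12.5 FPKM in WT against 15.2 in Dux KO. Pde3b, a phosphodiesterase gene, carries it in exon 15 at chr7:114534750-114534775 on the plus strand, and Blm, a RecQ helicase gene, in exon 7 at chr7:80502468-80502491 on the minus strand.
Pde3b: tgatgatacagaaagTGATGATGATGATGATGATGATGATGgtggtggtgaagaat
Blm: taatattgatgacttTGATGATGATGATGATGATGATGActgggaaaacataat
Pde3b had 4.92 to 7.67 FPKM in WT and 7.23 to 11.0 FPKM in Dux KO, and Blm had 4.83 to 7.45 and 4.96 to 6.17 FPKM. Neither is called lower in the authors' deposited table, which gives log2 fold changes of 0.60 (adjusted p = 0.0190) and -0.17 (adjusted p = 0.568). For (TAGA)n and its reverse complement (TCTA)n, the most abundant gene with a tract of either unit was B020004C17Rik. It was lower, with a log2 fold change of -0.96 in the authors' deposited table (adjusted p = 3.70e-05). Its tract lies in exon 4 of a transcript without coding sequence, at chr14:57018074-57018123. In that transcript the tract reads TATC, a rotation of TCTA and not of TAGA. Whether it gave reads to (TAGA)n, (TCTA)n or neither was not tested. The gene as a whole had 1066 to 1469 FPKM in WT and 465 to 808 FPKM in Dux KO. Tracts of (TATG)n or its reverse complement (CATA)n lay in 80 genes, none in coding sequence. Of these, 11 (13.8%) were lower and 19 (23.8%) higher by the authors' deposited table, against 18.6% and 16.2% of all genes. The most abundant, Klhdc2, had a log2 fold change of 0.71 in the authors' deposited table (adjusted p = 0.0179). The next, Timm17a, went the other way, with -0.65 there (adjusted p = 0.00863). (CAGC)n tracts lay in 3 genes, of which 1 was higher by the authors' deposited table and none lower, too few to set against the shares of all genes.

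Against the other classes of the repeat table, simple repeats had the smallest share of called names among classes with at least 6 names tested. It was 4.83%, with differences between classes not tested, against 6.49% of 154 LINE names, 8.74% of 183 DNA transposon names, 15.6% of 614 LTR names, 16.7% of 6 satellite names and 34.2% of 38 SINE names. Without (A)n and (T)n, the simple repeats summed to 32115 to 34340 FPM in WT and 25605 to 29984 FPM in Dux KO, a ratio of 0.842 with no overlap. With equal repeat totals this ratio was 1.04 and the groups overlapped. Members differ in depth from these classes, with a median level of 11.8 FPM, or 31.8 reads a pool, against 70.0 FPM for LTR names and 3894 FPM for SINE names. Of the 95 members under 10 FPM only (CAGC)n was called, and a difference in the less abundant names may not have been detectable at this depth.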

How the data were processed

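RNA-seq of 8 pools was used, with groups and replicate numbers as the labels give them. The authors deposited a signal per repeat name, called FPM in their table, and FPKM per gene. Both tables also hold a mean signal, a log2 fold change of the groups and an adjusted p-value (Benjamini-Hochberg), as deposited by the authors. Per the submitters' processing notes, the tools include Trimmomatic 0.32, STAR 2.6.1a and SAMtools 1.7, with the build GRCm38 (mm10). Not given in the sources used here are the counter, the repeat annotation, the authors' test and how reads with several positions were treated, so a read that fits many tracts may be absent, shared out or counted at each.

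The FPM values of a pool were whole multiples of 1 step, and 100% came out whole within 0.05 when divided by it, which gave reads. Repeat names with a mean of at least 1 FPM, 1267 in number, were fitted together on log2(FPM + 1) with limma 3.58.1 (R 4.3.3), with a variance trend, robust moderation, all 8 pools and no covariate. A name was called at a two-sided Benjamini-Hochberg adjusted p under 0.05. Sums over names were not tested. Ratios within pairs of names were tested by exact permutation over the 8 pools, adjusted over all 86 pairs. The procedure was tested on simulated data. Alternatives were a pseudocount of 0.1 FPM, no filter, a mean of at least 10 FPM, median-of-ratios scaling, equal repeat totals, the replicate number as a block, plain limma moderation with neither trend nor robust fit, the deposited p-values, the recovered reads in edgeR 4.0.16 (quasi-likelihood) or in DESeq2 1.42.0, and leaving out pools.

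Among the names called lower, 2 are counted but not reported singly here. Named were the 3 most abundant names of each unit length, the 6 called names of largest change in each direction save the 2 above, the families of the mononucleotides, of CA and GA, of CAG and CGG and of the telomere repeat, and the names next to the minimum. (GGA)n, the reverse complements of called names, the names of A and T only, (CACG)n and the genes with tracts were added after their values were seen. The members, lists and rules were chosen with earlier results of these data known. Tract sequences, positions and exons come from GENCODE M21, and tracts on 1 chromosome are not shown.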

Additional observations from a re-analysis of the deposited data

How the results depend on the processing

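The count of simple repeats called lower was 8 in the analysis above, against 96 of all 1267 names. It was 1 with equal repeat totals, 1 with limma without trend and robust moderation and 1 without Dux KO replicates 1 and 2 together. With the replicate block it was 13. Among all names these settings called 37, 40, 27 and 106 lower, in that order. The count of names called higher, 2 above, was 1 with a pseudocount of 0.1 FPM, without a filter, with a mean of at least 10 FPM, with limma without trend and robust moderation and without Dux KO replicates 3 and 4. It was 4 with median-of-ratios scaling, with the replicate block and with edgeR on recovered reads, 6 with DESeq2 on recovered reads, 19 with equal repeat totals and 0 without Dux KO replicates 1 and 2. Leaving out single pools gave 2 to 8 lower and 0 to 3 higher names: 5 lower without WT replicate 1, 3 without WT replicate 4 and 2 when Dux KO replicate 2 was left out, with 0 higher names without WT replicate 2, without WT replicate 4 or when Dux KO replicate 2 was left out, and 1 higher without WT replicate 3 or when Dux KO replicate 1 was left out. Among all names, 59 were higher in the analysis above, 312 with equal repeat totals, 112 with DESeq2 and 4 without Dux KO replicates 1 and 2. Leaving out single pools gave 49 to 105 lower and 14 to 58 higher among all names. The causes were not tested. The ratio of the summed FPM of all members, 0.868 above, ran from 0.754 to 1.07 under the alternatives tried for it. It passed 1 with equal repeat totals, so its direction rests on the scaling. The SD of this ratio at the level of single pools was 0.268, which is wider than the error of a ratio of group means. It does not show that the shifts were small, since a scaling changes all pools at once. Deviations of same-numbered WT and Dux KO pools correlated at 0.02, 0.13, -0.04 and 0.10, so the numbers were not taken to pair the pools, and the replicate block rests on shared numbers only. Of 636 values of the 32 named repeats under alternatives, 569 kept their side of the threshold, 59 lost a call, 8 gained one and 0 called values changed direction. Uncalled names make up most of these 32, so many of the 569 are values of uncalled names that stayed uncalled. Only a called name could lose a call, so the 59 fall on the called names alone. The 569 thus do not measure how stable a call was. Depth limits the rarer names, since the median member had 31.8 reads a pool.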
